A study of Homo sapiens with 4 samples.

Results

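The expression of 10 aldehyde dehydrogenase (ALDH) genes was followed in the stem-like fraction of MDA-MB-231, a triple negative human breast cancer line, carrying either an shRNA against KDM1A or a control shRNA. The genes were chosen by name, as enzymes of the class whose activity the cells had been sorted by, and all 10 were found among the 23228 genes listed in each library. Per the labels' protocols, cells positive in the ALDEFLUOR assay were sorted from the line, cultured in MammoCult medium and transduced with lentiviral shRNA vectors, so both groups share the sort, the medium and a viral vector. There were 2 libraries of total RNA from cells carrying KDM1A shRNA and 2 from cells carrying control shRNA, with the hairpin itself not identified in the labels. Rescued, unsorted and ALDEFLUOR-negative cells were not analysed here. KDM1A, also called LSD1, removes methyl groups from lysine 4 of histone H3 within the CoREST repressor complex. The design text speaks of samples run in duplicate, and the labels do not tie the 2 libraries of each group to different cultures. The p-values therefore rest on library-to-library spread alone, and that spread may be technical.

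Aldehyde dehydrogenases are NAD(P)-dependent enzymes that oxidise aldehydes to carboxylic acids. In the ALDEFLUOR assay a fluorescent aldehyde diffuses into cells and is turned by these enzymes into a charged product that stays inside, so bright cells are those with high activity. Bright breast cancer cells are known to be enriched for tumour-initiating capacity, and ALDH1A1 and ALDH1A3 are the isozymes most often named as the source of that activity.

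The deposited values were whole-number read counts per gene. Reads assigned to genes numbered 23902900 and 25761937 in KDM1A shRNA libraries 1 and 2, and 26923678 and 24250377 in control libraries 1 and 2. Genes were tested with edgeR's quasi-likelihood test with Benjamini-Hochberg adjustment over the 14012 genes that passed the filter on low counts, and levels are given as CPM scaled by TMM (trimmed mean of M-values). KDM1A itself had 561 and 649 reads in the KDM1A shRNA libraries and 4660 and 4059 reads in the control libraries. Its level was 24.3 ± 1.22 CPM with KDM1A shRNA and 171 ± 4.73 CPM with control shRNA (SD, 2 libraries each), a fall to 14.2% of control (edgeR adjusted p = 2.2e-14). The line's own mesenchymal genes were abundant in both groups: VIM, encoding vimentin, averaged 2115 CPM with KDM1A shRNA and 1845 CPM with control shRNA. Of the hormone receptor genes, ESR1 had 0 and 1 reads with KDM1A shRNA and 7 and 9 reads with control shRNA. PGR had at most 1 read in any library. Not all luminal epithelial genes were this low: KRT19 averaged 368 CPM with KDM1A shRNA and 284 CPM with control shRNA.

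A small set of transcripts differed far more between the groups and is set beside several of the genes named here. CDKN2A, a cell cycle inhibitor gene that MDA-MB-231 is known to lack, had 13 and 19 reads with KDM1A shRNA and 323 and 329 reads with control shRNA. Summed over CDKN2A, CDKN2B, MTAP, LIN28B, NEFL and NEFM, the level was 2.59 and 2.63 CPM in the KDM1A shRNA libraries and 94.5 and 92.3 CPM in the control libraries. All 6 fell, to between 0.461% and 5.65% of control. These 6 were listed with their values already known. A difference in cell stock between the groups, such as other cells mixed into the controls, cannot be told apart from the shRNA in these libraries, and this limit holds for every fold change given here. The leukocyte genes PTPRC and CD3E had between 0 and 4 reads in every library. Another leukocyte gene, CD68, which tumour cells also express, averaged 123 CPM with KDM1A shRNA and 175 CPM with control shRNA. The 4 fibroblast genes summed to 63.6 and 57.3 CPM with KDM1A shRNA and to 127 and 122 CPM with control shRNA; of the 3 tested, DCN and PDGFRA fell and LUM rose, and COL3A1 had at most 4 reads. The 3 endothelial genes all fell and summed to 21.6 and 22.2 CPM with KDM1A shRNA and to 27.7 and 27.3 CPM with control shRNA, nearly all of it PECAM1, while CDH5 and VWF had at most 24 reads. The call of PECAM1 was lost without KDM1A shRNA library 1 (edgeR adjusted p = 0.060), and that of CDH5 without KDM1A shRNA library 2 (0.11) and in DESeq2 (0.090). The part of such cells in the results was not tested.

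Among the 10 members, the retinaldehyde dehydrogenases ALDH1A2 and ALDH1A3 fell and the lipid and carnitine enzymes ALDH3A2 and ALDH9A1 rose. The other 5 that could be tested were not called, and ALDH1A1 had too few reads for a test. So 4 of the 9 tested members were called, where 56.1% of all genes tested were called. The 2 rises stand beside 27.3% of all genes called higher, and the 2 falls beside 28.8% called lower. Both falls exceeded 2-fold, as 8.54% of all genes did in that direction, and neither rise reached 2-fold, as 3.07% did. In 7 of the 9 every KDM1A shRNA library lay on one side of both controls, as it did in 77.8% of all genes tested. The median log2 fold change was 0.04 over the 9 members and −0.0047 over all genes. ALDH1A2 passed the filter only through its reads in the control libraries, so these counts over the members describe them and support nothing further.

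The ALDH1A genes encode cytosolic enzymes that make retinoic acid from retinaldehyde, and their promoters are shown because the falls among the members were in this subfamily. The sequences are the 250 bases before a listed gene start, from RefSeq on GRCh38.p14, written 5′ to 3′ on the gene's strand with each CG dinucleotide in capitals. Of the 10 members 8 were in the table; ALDH2 and ALDH3A1 were not. ALDH1A2 has 2 listed starts and the first is shown. The positions are chr9:72953054-72953303 (minus strand) for ALDH1A1, chr15:58065712-58065961 (minus strand) for ALDH1A2 and chr15:100879581-100879830 (plus strand) for ALDH1A3.
ALDH1A1: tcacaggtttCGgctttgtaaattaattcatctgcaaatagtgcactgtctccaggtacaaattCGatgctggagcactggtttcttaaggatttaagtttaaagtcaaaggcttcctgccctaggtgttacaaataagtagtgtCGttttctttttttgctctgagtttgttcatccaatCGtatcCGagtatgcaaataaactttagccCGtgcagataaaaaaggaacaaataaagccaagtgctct
ALDH1A2: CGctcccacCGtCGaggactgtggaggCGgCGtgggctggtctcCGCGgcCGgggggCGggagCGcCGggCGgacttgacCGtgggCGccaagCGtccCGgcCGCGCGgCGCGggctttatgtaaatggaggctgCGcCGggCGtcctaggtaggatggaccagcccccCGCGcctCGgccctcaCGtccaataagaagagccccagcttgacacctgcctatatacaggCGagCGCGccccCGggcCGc
ALDH1A3: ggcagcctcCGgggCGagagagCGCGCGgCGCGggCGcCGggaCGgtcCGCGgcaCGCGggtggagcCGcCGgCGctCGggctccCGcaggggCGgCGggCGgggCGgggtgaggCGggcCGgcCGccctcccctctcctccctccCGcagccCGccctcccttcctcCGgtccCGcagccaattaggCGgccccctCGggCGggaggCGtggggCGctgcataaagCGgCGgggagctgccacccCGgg
ALDH1A2 held 33 CG dinucleotides in this window and ALDH1A3 held 38, more than in 91.8% and 96.7% of the 35116 starts in the table. ALDH1A1 held 6, and the median over all starts was 11. The second start of ALDH1A2 held 1. Of all starts, 93.9% held at least 1 CG. Among the other members in the table, the windows of ALDH1B1, ALDH9A1 and ALDH7A1 held 23, 21 and 11. The 2 listed starts of ALDH3A2 held 9 and 22, and those of ALDH3B1 held 3 and 11. Outside the members, ALDH5A1, which fell, held 33, and ALDH18A1, which was not called, held 24. The part of CG content in the falls was not tested.

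ALDH1A1 (chromosome 9, 75515587 to 75695358, minus strand, GRCh37) was all but absent. It had 1 and 0 reads in KDM1A shRNA libraries 1 and 2, and 0 and 1 in control libraries 1 and 2. A count of 0 allows up to 3 reads, or 0.116 CPM in KDM1A shRNA library 2 and 0.112 CPM in control library 1, and no difference could be detected at this depth. Aldehyde dehydrogenase activity was not among the values analysed here.

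ALDH1A2 (chromosome 15, 58245622 to 58790065, minus strand), which supplies retinoic acid in the early embryo, had 3 and 5 reads in the KDM1A shRNA libraries and 59 and 52 reads in the control libraries. Its level was 0.159 ± 0.048 CPM with KDM1A shRNA and 2.17 ± 0.042 CPM with control shRNA (SD, 2 libraries each). Both KDM1A shRNA libraries lay far below both controls, close to the limit of 3 reads. The log2 fold change was −3.72 (SE 0.37, edgeR adjusted p = 8.8e-07). From the summed reads, 8 against 111, the level was 7.39% of control, with an exact 95% interval of 3.12% to 15.1% that covers counting error only. This retained share was above that of CDKN2A, at 4.99%, and MTAP, at 5.65%, and its interval covers both. The part of whatever moved those transcripts in the fall of ALDH1A2 was not tested. Exons of AQP9 on the other strand cover 4.36% of its merged exons, and AQP9 had at most 2 reads in any library. In bulk RNA, fewer cells expressing a gene and less RNA per cell cannot be told apart.

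ALDH1A3 (chromosome 15, 101417919 to 101456831, plus strand), the third retinaldehyde dehydrogenase, kept more of its level. It had 99 and 134 reads with KDM1A shRNA and 292 and 240 reads with control shRNA. In CPM these were 4.13 and 5.19 with KDM1A shRNA, against 10.9 and 9.89 with control shRNA. Both KDM1A shRNA libraries lay below both controls, by more than the spread within either group. The log2 fold change was −1.15 (SE 0.13, 95% interval −1.44 to −0.87, edgeR adjusted p = 4.2e-06), and the level 44.9% of control. The 6 transcripts described with CDKN2A were at 0.461% to 5.65% of control. They were listed with their values already known, so this comparison cannot tell whether the falls are related. The part of whatever moved those transcripts in the fall of ALDH1A3 was not tested. Exons of an antisense RNA, ALDH1A3-AS1, cover 32.1% of its merged exons. Since no source used here states whether counting used strand, reads from the pair cannot be told apart.

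The 3 ALDH1A genes summed to 4.30 and 5.39 CPM in the KDM1A shRNA libraries and 13.1 and 12.1 CPM in the control libraries, 38.5% of control. In the KDM1A shRNA libraries nearly all of these reads were from ALDH1A3, and in the control libraries ALDH1A2 gave 59 and 52 reads beside 292 and 240 from ALDH1A3. The sum over all 10 members went the other way, with 547 and 555 CPM with KDM1A shRNA and 520 and 506 CPM with control shRNA, or 107% of control. ALDH1A3 made up 0.756% and 0.935% of the members' reads with KDM1A shRNA, and 2.10% and 1.96% with control shRNA. ALDH3A2 made up 24.2% and 23.5% with KDM1A shRNA, and 19.0% and 18.5% with control shRNA. Sums over chosen members were not tested.

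**Figure D1:**
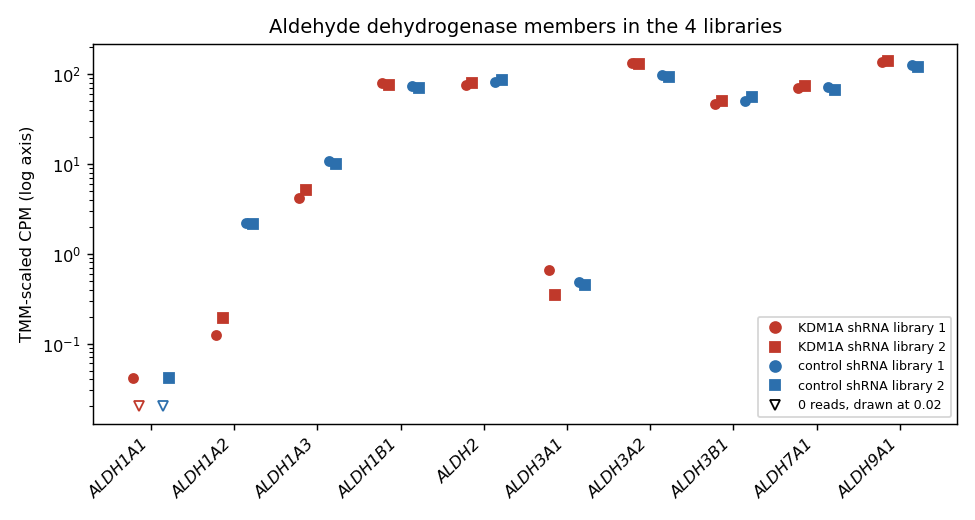
TMM-scaled CPM of the 10 members on a log axis, 1 point per library, with KDM1A shRNA in red left of control shRNA in blue. ALDH1A2 and ALDH1A3 sit lower and ALDH3A2 slightly higher with KDM1A shRNA, and ALDH1A1 is at 0 or 1 read throughout.

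The mitochondrial acetaldehyde enzymes were not called. ALDH2 (chromosome 12, 112204691 to 112255336), which clears the acetaldehyde made from ethanol, stood at 75.2 and 80.0 CPM with KDM1A shRNA and at 81.9 and 86.0 CPM with control shRNA. Both KDM1A shRNA libraries were below both controls, by a margin smaller than the spread within either group (log2 fold change −0.11, 95% interval −0.22 to −0.0020, edgeR adjusted p = 0.077). It was called lower without control library 1 (edgeR adjusted p = 0.0098). ALDH1B1 (chromosome 9, 38392699 to 38398658), its close relative in the same compartment, stood at 79.3 and 75.8 CPM with KDM1A shRNA and at 74.7 and 70.4 CPM with control shRNA. Its log2 fold change was 0.10 (95% interval −0.02 to 0.21, edgeR adjusted p = 0.13), and it was called higher without control library 1 (edgeR adjusted p = 0.021). Of the 100-base windows of the main ALDH2 transcript, 6.35% also occurred in other annotated genes, and for ALDH1B1 there were 0. The genes sharing ALDH2 windows include a gene at the same locus and strand, whose exons cover 6.99% of the merged exons of ALDH2.

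Of the class 3 enzymes, which act on lipid and aromatic aldehydes, ALDH3A2 rose. ALDH3A2 (chromosome 17, 19551449 to 19589073, plus strand) encodes the fatty aldehyde dehydrogenase of the endoplasmic reticulum, the enzyme deficient in Sjögren-Larsson syndrome. It had 132 and 130 CPM with KDM1A shRNA and 98.8 and 93.6 CPM with control shRNA. The groups were well apart, with a gap several times the spread within either (log2 fold change 0.45, SE 0.05, edgeR adjusted p = 9.9e-07). ALDH3A1 (chromosome 17, 19641297 to 19652256, minus strand), a crystallin of the cornea and a target of the aryl hydrocarbon receptor in liver cells, lies 52.2 kb beyond it. It had 16 and 9 reads with KDM1A shRNA and 13 and 11 reads with control shRNA. The groups overlapped, and the 95% interval of its log2 fold change, −0.83 to 1.02, spans changes of nearly 2-fold either way (edgeR adjusted p = 0.87).

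ALDH3B1 (chromosome 11, 67776048 to 67796749, plus strand), which acts on aldehydes from lipid peroxidation, had 46.5 and 50.2 CPM with KDM1A shRNA and 51.0 and 56.0 CPM with control shRNA. The groups almost touched (log2 fold change −0.14, 95% interval −0.28 to −0.01, edgeR adjusted p = 0.065). Without control library 1 it was called lower (edgeR adjusted p = 0.0017). Its relative ALDH3B2 had 2 and 1 reads with KDM1A shRNA and 4 and 7 with control shRNA and was not tested. Although they are paralogs, 0 of the 100-base windows of the main ALDH3B1 transcript occurred exactly in any other annotated gene, so reads of the length used here could be told apart where they had no mismatch.

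The last members serve amino acid and carnitine metabolism. ALDH9A1 (chromosome 1, 165631453 to 165667799, minus strand), which oxidises 4-trimethylaminobutyraldehyde on the way to carnitine, had 139 and 140 CPM with KDM1A shRNA and 128 and 120 CPM with control shRNA. It rose by a small amount, to 112% of control (log2 fold change 0.16, SE 0.04, edgeR adjusted p = 0.0053). The call was lost without KDM1A shRNA library 1 (edgeR adjusted p = 0.058) or library 2 (0.077). ALDH7A1 (chromosome 5, 125866892 to 125931054, minus strand), also called antiquitin, degrades lysine and is mutated in pyridoxine-dependent epilepsy. It had 69.9 and 73.5 CPM with KDM1A shRNA and 72.2 and 66.8 CPM with control shRNA, values that overlapped (log2 fold change 0.04, 95% interval −0.07 to 0.16, edgeR adjusted p = 0.52).

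**Figure D2:**
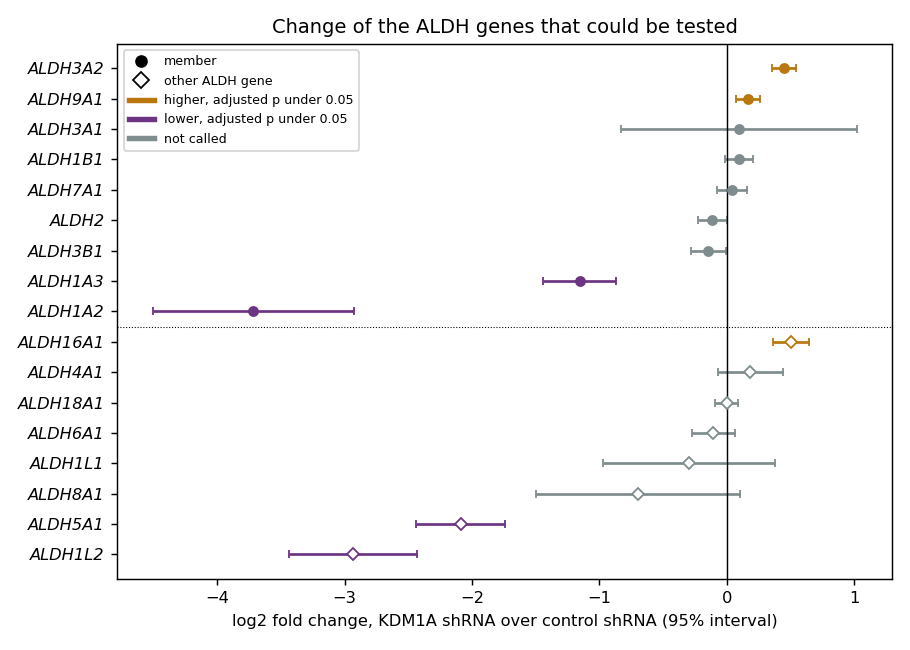
Log2 fold change of KDM1A shRNA over control shRNA with its 95% interval from edgeR for the 9 members and the 8 other ALDH genes that could be tested, coloured by call. ALDH1A2, ALDH1L2, ALDH5A1 and ALDH1A3 lie furthest below 0 and ALDH16A1 and ALDH3A2 furthest above.

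To compare the members with each other, CPM was divided by the length of the merged exons in GENCODE v44lift37, which gives RPKM. By this measure ALDH9A1 was highest, with 46.3 ± 0.31 RPKM with KDM1A shRNA and 41.3 ± 1.74 RPKM with control shRNA (SD, 2 libraries each). ALDH1B1 followed with 24.9 RPKM with KDM1A shRNA and 23.3 RPKM with control shRNA. With KDM1A shRNA the order then ran ALDH3A2 (8.57 RPKM), ALDH2 (7.98 RPKM), ALDH3B1 (7.30 RPKM), ALDH7A1 (4.0 RPKM) and ALDH1A3 (0.874 RPKM). With control shRNA it ran ALDH2 (8.63 RPKM), ALDH3B1 (8.08 RPKM), ALDH3A2 (6.27 RPKM), ALDH7A1 (3.88 RPKM) and ALDH1A3 (1.95 RPKM). Neighbours in both orders did not overlap between libraries, except ALDH2 and ALDH3B1 with control shRNA.

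The bottom of the order held the remaining members. ALDH3A1 had 0.131 RPKM with KDM1A shRNA and 0.121 RPKM with control shRNA. ALDH1A2 had 0.0196 RPKM with KDM1A shRNA, below ALDH3A1, and 0.267 RPKM with control shRNA, above it. ALDH1A1 was last in both groups, at a level set by 1 read. Under all 3 gene lengths tried, the ALDH1A genes and ALDH3A1 held the last 4 places and ALDH9A1 the first. The middle of the order depends on the length used: with the length of the main (Ensembl canonical) transcript, chosen after the data were seen, ALDH3A2 came to 35.5 RPKM with KDM1A shRNA and 26.0 RPKM with control shRNA, second behind ALDH9A1 in both groups.

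**Figure D3:**
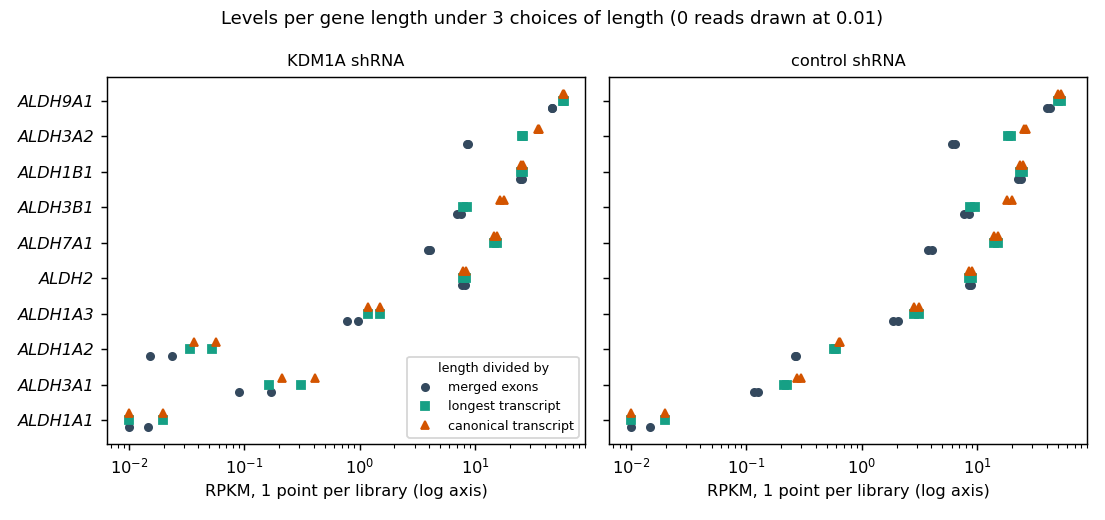
Levels per gene length (RPKM, log axis) of the 10 members in each library, for KDM1A shRNA on the left and control shRNA on the right, under 3 choices of gene length. ALDH9A1 is highest and ALDH1A1 lowest under each, while ALDH3A2, ALDH3B1 and ALDH7A1 shift with the choice.

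Genes with the most similar profile over the 4 libraries were found by the distance between centred log2 CPM values among 12788 genes with at least 1 CPM on average. The nearest to ALDH1A2 were the Notch ligand DLL1 (distance 0.17), the haptoglobin gene HP (0.20) and the glycosyltransferase MGAT3 (0.20). DLL1 had 0.209 and 0.271 CPM with KDM1A shRNA and 3.36 and 3.09 CPM with control shRNA. The nearest to ALDH1A3 were FAM117B (0.05), ZNF117 (0.07) and SH2D2A (0.08). FAM117B had 5.43 and 6.63 CPM with KDM1A shRNA and 13.6 and 12.5 CPM with control shRNA. The 4 libraries form 2 groups, so genes with a like fold change score as near.

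Of the 9 other ALDH genes, 8 could be tested, and 2 fell and 1 rose. In comparison, 28.8% of all genes tested were called lower and 27.3% higher. The same shares belong beside the counts of every list below. These counts describe the lists and support nothing further. ALDH1L2, the mitochondrial 10-formyltetrahydrofolate dehydrogenase, had 16 and 14 reads with KDM1A shRNA and 130 and 107 reads with control shRNA. The level was 13.1% of control, with a log2 fold change of −2.93 and SE of 0.23 (edgeR adjusted p = 8.6e-08). ALDH5A1, the succinic semialdehyde dehydrogenase that ends GABA breakdown, had 46 and 61 reads with KDM1A shRNA and 227 and 240 reads with control shRNA (log2 fold change −2.09, SE 0.16, edgeR adjusted p = 6.3e-08). ALDH1L2 and ALDH5A1 were at 13.1% and 23.3% of control. The 6 transcripts described with CDKN2A kept less, but were listed with their values already known, so this comparison cannot tell whether the falls are related. The part of whatever moved that set in these falls was not tested. ALDH16A1, a family member whose human form is thought to lack the catalytic cysteine, had 40.9 and 41.1 CPM with KDM1A shRNA and 27.6 and 30.2 CPM with control shRNA (log2 fold change 0.51, SE 0.07, edgeR adjusted p = 1.5e-05). Exons of PIH1D1 on the other strand cover 3.31% of its merged exons, and those of a gene on the same strand cover 7.34%.

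The rest of the family was not called. ALDH18A1, which starts proline synthesis, stood at 139 CPM in both groups, with a 95% interval of the log2 fold change from −0.09 to 0.09. ALDH6A1 of valine breakdown had 27.6 CPM with KDM1A shRNA and 29.7 CPM with control shRNA; it was called lower without control library 2 (edgeR adjusted p = 0.027). ALDH4A1 of proline breakdown had 8.99 CPM with KDM1A shRNA and 7.92 CPM with control shRNA, and 41.8% of its merged exons are shared with another annotated gene on the same strand. ALDH1L1 and ALDH8A1 were near 1 CPM or below in both groups. Over all 9, the sum was 222 and 219 CPM with KDM1A shRNA and 222 and 221 CPM with control shRNA.

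Genes that handle retinoids around the ALDH1A step changed in both directions. Of 20 listed, 12 could be tested; 5 fell and 1 rose, with a median log2 fold change of −0.27. CRABP2, which carries retinoic acid to the nucleus, fell to 6.73 CPM with KDM1A shRNA, against 11.7 CPM with control shRNA (log2 fold change −0.79, SE 0.11, edgeR adjusted p = 3.3e-05). DHRS3, which turns retinaldehyde back into retinol, fell to 41.5% of control (edgeR adjusted p = 0.0021). RDH13, a mitochondrial retinol dehydrogenase, rose to 21.5 CPM with KDM1A shRNA, against 14.5 CPM with control shRNA (log2 fold change 0.58, SE 0.10, edgeR adjusted p = 0.00013). Also called lower were STRA6, the retinol importer, lost without KDM1A shRNA library 1 (edgeR adjusted p = 0.13), and RDH10, lost without KDM1A shRNA library 2 (0.16). DESeq2 called neither, with adjusted p of 0.13 for STRA6 and 0.082 for RDH10.

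Of the 6 receptor genes of retinoic acid and its relatives 4 could be tested; 1 rose and 1 fell. RXRA rose to 122 CPM with KDM1A shRNA, against 102 CPM with control shRNA (log2 fold change 0.26, edgeR adjusted p = 0.00015). RARG was lower by 0.18 on the log2 scale (edgeR adjusted p = 0.046). Leaving out KDM1A shRNA library 2 (0.42) or control library 2 (0.20) ended this call, as did library size alone as the scaling (0.059) and DESeq2 (0.14). Of the 10 target genes, some of them also in the handling list, 7 could be tested; 4 fell and 1 rose, with a median log2 fold change of −0.79. TGM2, a transglutaminase, rose to 2292 CPM with KDM1A shRNA, against 1701 CPM with control shRNA (log2 fold change 0.43, SE 0.04, edgeR adjusted p = 1.1e-07). RARB, a classic target, had at most 1 read with KDM1A shRNA and at most 5 with control shRNA and was not tested.

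Other enzymes that oxidise or reduce aldehydes changed by less than 2-fold where they were called. Of 20 listed, 14 could be tested; 5 fell and 3 rose. AOX1, aldehyde oxidase, fell to 202 CPM with KDM1A shRNA, against 322 CPM with control shRNA (log2 fold change −0.67, SE 0.04, edgeR adjusted p = 2.7e-09). The aldo-keto reductase AKR1C3 rose to 54.7 CPM with KDM1A shRNA, against 38.9 CPM with control shRNA (log2 fold change 0.49, edgeR adjusted p = 6.0e-06), and the carbonyl reductase CBR1 rose as well (0.36). AKR1C genes are close paralogs, so their values are uncertain. AKR1A1, an aldehyde reductase, fell to 69.9 CPM with KDM1A shRNA, against 83.9 CPM with control shRNA (edgeR adjusted p = 0.00038). The smaller falls of AKR1B1 and CBR4 were lost without either KDM1A shRNA library, and that of AKR1B1 also without control library 2. DESeq2 called neither, with adjusted p of 0.052 for AKR1B1 and 0.15 for CBR4.

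Of the efflux pumps, some of which can export the fluorescent product of the assay, 7 of 7 could be tested; 2 fell and 1 rose. ABCB1, the multidrug transporter P-glycoprotein, had 9 and 8 reads with KDM1A shRNA and 47 and 42 reads with control shRNA (log2 fold change −2.33, SE 0.33, edgeR adjusted p = 2.6e-05). ABCC3 rose to 197 CPM with KDM1A shRNA, against 147 CPM with control shRNA (log2 fold change 0.43, edgeR adjusted p = 3.2e-06). ABCC1 was lower by 0.15 on the log2 scale (edgeR adjusted p = 0.025). Leaving out KDM1A shRNA library 1 (0.31), KDM1A shRNA library 2 (0.051) or control library 2 (0.063) ended this call, as did DESeq2 (0.083). ABCG2, the pump of side population cells, had 24 and 21 reads with KDM1A shRNA and 35 and 26 reads with control shRNA and was not called.

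**Figure D4:**
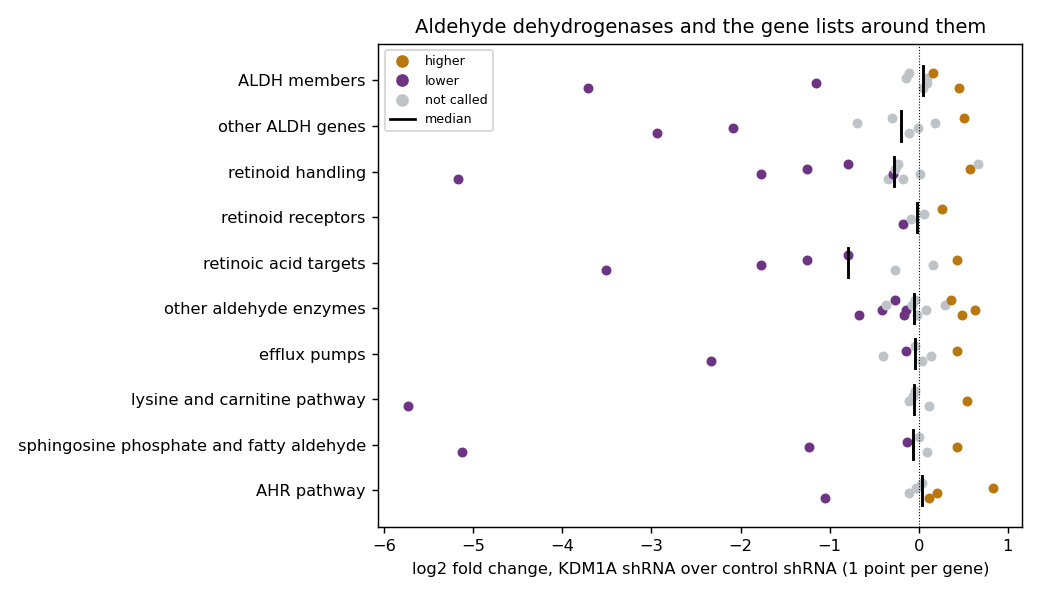
Log2 fold change of KDM1A shRNA over control shRNA for each tested gene of the ALDH members and 9 related lists, 1 point per gene coloured by call, with a black bar at each list's median. The medians range from −0.79 for retinoic acid targets to 0.04 for the ALDH members, and single genes such as TMLHE and FAR2 lie far below the rest of their lists.

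Genes of the pathways that ALDH9A1, ALDH7A1 and ALDH3A2 belong to changed in both directions. In the lysine and carnitine list 6 of 7 could be tested; 1 fell and 1 rose. SLC22A5, the carnitine transporter, rose to 21.9 CPM with KDM1A shRNA, against 15.01 CPM with control shRNA (log2 fold change 0.55, SE 0.08, edgeR adjusted p = 4.7e-05). TMLHE, the first enzyme of carnitine synthesis, had 0 and 1 reads with KDM1A shRNA and 35 and 33 reads with control shRNA. In the list of sphingosine phosphate and fatty aldehyde genes 6 of 6 could be tested; 3 fell and 1 rose. The sphingosine kinase SPHK1 fell to 4.06 CPM with KDM1A shRNA, against 9.54 CPM with control shRNA (log2 fold change −1.23, SE 0.13, edgeR adjusted p = 1.4e-06), while SPHK2 rose (0.43). The small fall of SGPL1, the lyase that makes the fatty aldehyde, was lost when leaving out KDM1A shRNA library 1, KDM1A shRNA library 2 or control library 1, and in DESeq2 (adjusted p = 0.12). FAR2, which reduces fatty acids to fatty alcohols, had 2 and 7 reads with KDM1A shRNA and 196 and 137 reads with control shRNA. TMLHE and FAR2 were retained at 1.45% and 2.74% of control, within the range of the 6 transcripts described with CDKN2A, and the part of that set in these falls was not tested.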

How the data were processed

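Total RNA of 4 libraries had been sequenced and read counts per gene, without normalization, were deposited by the authors. The submitters' processing notes name CASAVA 1.8.2, TopHat2 2.0.8b, HTSeq and the hg19 build. HTSeq's summary lines (38.9% to 41.0% of each total, mostly reads without a unique place) were dropped. Counts were tested with edgeR 4.0.16 under R 4.3.3: TMM, filterByExpr (minimum count 10, minimum total 15), quasi-likelihood F-test with group alone, threshold 0.05. A standard error is the log2 fold change over the root of F. Fold changes put KDM1A shRNA over control shRNA. Exact permutation of 2 against 2 cannot reach a two-sided p under 0.333, so it was not used. Replicates varied beyond counting noise (chi-square per degree of freedom 1.62 with KDM1A shRNA, 4.13 with control shRNA). Positions and lengths are GENCODE v44lift37 on GRCh37, the same build as hg19. The test was tried on simulated data. Alternatives were other scalings and filters, DESeq2 1.42.0, limma-voom (limma 3.58.1), a replicate block and leaving out each library. Members and lists were chosen with earlier results of these data known. Named genes were KDM1A, ALDH and marker genes, the 3 nearest profiles, up to 4 genes of smallest p per list and any gene of lists of up to 6; ABCG2, STRA6, RDH10, AKR1B1, CBR4, RARB and the overlapping genes AQP9 and PIH1D1, and genes given for a change of sign, were named after their values were seen. Values of some listed genes are not reported here.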

Additional observations from a re-analysis of the deposited data

How the results depend on the processing

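The falls of ALDH1A2 and ALDH1A3 and the rise of ALDH3A2 kept direction and call under every alternative that gave them a value; the filter at a mean of 5 CPM gave none for ALDH1A2 and ALDH3A1. No called fold change reversed. The sign changed in 14 genes that were called neither way, under 26 settings in all, and the cause was not tested. ALDH18A1 was −0.0021, and 0.00011 with RLE scaling, 0.0040 with library size alone, 0.0029 with at least 1 count in total and 0.00015 in DESeq2. Under upper quartile scaling and the filter at a mean of 5 CPM, RDH11 was −0.014 and −0.011, and SGPP1 was −0.017 and −0.013. With 1 library left out, log2 fold changes ranged from −0.42 to 0.50 for ALDH3A1, −0.0099 to 0.10 for ALDH7A1, −0.54 to 0.034 for ALDH1L1, −0.016 to 0.011 for ALDH18A1, −0.011 to 0.033 for RDH11, −0.99 to 0.25 for RDH14, −0.11 to 0.34 for AKR1B10, −0.24 to 0.14 for ABCC2, −0.0092 to 0.096 for ABCC4, −0.28 to 0.061 for AADAT, −0.11 to 0.029 for GCDH, −0.0050 to 0.022 for SGPP1, −0.28 to 0.49 for CYP1A1 and −0.077 to 0.026 for TIPARP. ALDH2 became called at −0.14 (edgeR adjusted p = 0.033) under upper quartile scaling and at −0.13 (0.039) under the filter at a mean of 5 CPM. ALDH3B1 became called at −0.17 under upper quartile scaling (0.032) and −0.17 under that filter (0.040), so upper quartile scaling called 4 members lower. Leaving out 1 library gave 3 to 7 members called, 1 to 3 of them higher and 2 to 4 lower. The 7 came without control library 1, where ALDH1B1, ALDH2 and ALDH3B1 were added. Log2 fold changes then ranged from 0.053 to 0.14 for ALDH1B1, −0.16 to −0.067 for ALDH2, −0.21 to −0.078 for ALDH3B1 and 0.12 to 0.21 for ALDH9A1. The replicate block called ALDH3B1 (−0.15, adjusted p = 0.033) and changed no other member's call. Deviations of same-numbered libraries correlated at 0.015. Whether same-numbered libraries shared a culture or a preparation cannot be told from this correlation. Over all genes 5978 to 8336 were called, with DESeq2 at 6116, limma-voom at 7816 and the block at 8142, against 7861. Summed over the members, the level was 100.1 RPKM with KDM1A shRNA and 93.8 RPKM with control shRNA by merged exons, 143 and 131 by the longest transcript, and 161 and 148 by the canonical transcript, the last chosen after seeing the data. With 2 libraries per group and at most 5 reads of ALDH1A2 in a KDM1A shRNA library, its fold is known only within a wide counting interval, and ALDH1A1 could not be compared.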

Other observations

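Genes of the aryl hydrocarbon receptor pathway, which controls ALDH3A1 in liver cells, gave 3 rises and 1 fall. Of the 8 listed, 7 could be tested, with a median log2 fold change of 0.04. Over all genes tested, 27.3% were called higher and 28.8% lower. NQO1, a quinone reductase, rose to 127 and 137 CPM with KDM1A shRNA, against 74.3 and 73.6 CPM with control shRNA (log2 fold change 0.84, SE 0.05, edgeR adjusted p = 3.4e-09). The receptor gene AHR rose to 174 CPM with KDM1A shRNA, against 150 CPM with control shRNA (log2 fold change 0.21, edgeR adjusted p = 0.00047). AHRR, a repressor of the receptor, fell to 47.7% of control; the call was lost without KDM1A shRNA library 1 (edgeR adjusted p = 0.058) or control library 2 (0.059), and in DESeq2 (0.064). CYP1B1 rose by 0.12 on the log2 scale, lost without KDM1A shRNA library 1 (0.27) or library 2 (0.074). CYP1A1, the classic target, had 14 and 12 reads with KDM1A shRNA and 17 and 9 reads with control shRNA.

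Of the 6 luminal epithelial markers 4 could be tested, and 2 rose and 2 fell. The rise of GATA3 was lost in DESeq2 (adjusted p = 0.13) and, in edgeR, without KDM1A shRNA library 1 (0.095), KDM1A shRNA library 2 (0.066) or control library 1 (0.12). The fall of ELF3 was lost in DESeq2 (0.083) and without KDM1A shRNA library 1 (edgeR adjusted p = 0.075). Their sum was 377 and 391 CPM with KDM1A shRNA and 295 and 307 CPM with control shRNA, nearly all of it KRT19. Of the 6 mesenchymal markers of the line, 3 rose and 3 fell. The fall of MSN was lost without KDM1A shRNA library 2 (edgeR adjusted p = 0.065), and that of FOSL1 without KDM1A shRNA library 1 (0.058) or library 2 (0.052). CAV1, the caveolae protein gene, averaged 956 CPM with KDM1A shRNA and 454 CPM with control shRNA (log2 fold change 1.07, SE 0.03, edgeR adjusted p = 4.6e-12).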
